A study of Mus musculus with 36 samples.

Results

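Collagens are the main structural proteins of the extracellular matrix, and the 44 genes examined here were all genes whose symbol is Col, 1 or 2 digits, the letter a and digits, such as Col1a1. Each was listed once in all 6 count tables, among 51912 to 55487 listed genes. The study asked what a short high-fat diet in male mice does to germ cells, early embryos and offspring. Cauda sperm, round spermatids and morulae came from C57BL/6N males, labelled C57BL/6 wildtype, 6 weeks old at the start and given high fat diet (HFD, 60 kcal% fat) or low fat diet (LFD, 10 kcal% fat) for 2 weeks. Morulae were made by in vitro fertilisation with sperm of these males and picked after 72 h. Liver, epididymal white adipose tissue (eWAT) and gastrocnemius muscle came from sons of HFD males that were themselves kept on chow, and were split by the study into glucose-tolerant and glucose-intolerant animals. Each table held 6 libraries. Diet was given by the column names in sperm and morulae alone, with 3 libraries per diet, so diet was compared there and nowhere else. For round spermatids, liver, eWAT and gastrocnemius the column names gave neither diet nor tolerance, so each library's value or the median and range over the 6 libraries is given, with no comparison of groups.

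Collagen chains fold in threes into a triple helix, are hydroxylated and secreted, and then assemble by type. The fibrillar types (11 genes here) form the cross-banded fibrils of skin, tendon and interstitial matrix, with types I and III the most abundant in most organs and type II typical of cartilage. Type IV (6 genes) forms the sheet that underlies epithelia and wraps adipocytes, muscle fibres and vessels. Types VII, XV and XVIII (3 genes) anchor or line that sheet. Type VI (6 genes) makes beaded filaments, the fibril-associated collagens with interrupted triple helices (FACIT, 9 genes) decorate fibrils, and the transmembrane collagens (4 genes), the network-forming types VIII and X (3 genes) and types XXVI and XXVIII (2 genes) make up the rest.

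The genes of type IV chains that assemble with each other lie head to head in pairs, which bears on how their levels are read below. The annotated starts of Col4a1 and Col4a2 on chromosome 8 overlapped by 22 bases. Those of Col4a4 and Col4a3 on chromosome 1 were 71 bases apart and those of Col4a6 and Col4a5 on chromosome X 1308 bases apart. The bases at the first 2 of these start regions are shown on the plus strand of GRCm38.p6 (RefSeq), together with the bases before the starts of Col3a1, a fibril gene that was high in eWAT, and of Col18a1, the gene that held most of the collagen counts of the liver. Counts per gene do not show which start a tissue used. Capitals mark matches on either strand to the letters of a TATA box, a CCAAT box or a GC box, spelled out in the next paragraph.
Col4a1 and Col4a2, shared start, chr8:11312805-11312826: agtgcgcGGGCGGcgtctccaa
Col4a4 and Col4a3, between the starts, chr1:82586850-82586920: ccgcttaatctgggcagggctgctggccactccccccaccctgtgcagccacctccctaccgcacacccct
Col3a1, plus strand, chr1:45311288-45311537: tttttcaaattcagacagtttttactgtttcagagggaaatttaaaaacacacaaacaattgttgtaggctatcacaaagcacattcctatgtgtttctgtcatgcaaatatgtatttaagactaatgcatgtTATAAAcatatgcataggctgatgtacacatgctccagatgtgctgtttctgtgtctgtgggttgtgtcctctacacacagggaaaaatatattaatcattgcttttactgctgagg
Col18a1, minus strand, chr10:77166549-77166780: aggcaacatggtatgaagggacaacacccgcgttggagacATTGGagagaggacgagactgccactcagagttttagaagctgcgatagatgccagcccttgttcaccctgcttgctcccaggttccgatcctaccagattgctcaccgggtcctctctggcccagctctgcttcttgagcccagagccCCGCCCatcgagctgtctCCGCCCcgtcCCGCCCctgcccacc

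Of the 44 genes, 35 had such a window of 250 bases before a RefSeq start, 38 windows in all. The TATA box letters, TATAAA, were in 5 of the 38 windows (13.2%) and in 12.4% of all 32851 windows of that length. The letters CCAAT were in 13 of 38 (34.2%) against 33.8% of all windows. Those of the GC box, GGGCGG, were in 22 of 38 (57.9%) against 32.7%. These matches describe letters in a window and say nothing of factor binding.

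Total counts per library were 2560219 to 4062321 in sperm, 20138842 to 31056066 in round spermatids, 11471251 to 12153141 in morulae, 2036237 to 2552454 in liver, 1338149 to 4055537 in eWAT and 369772 to 2749920 in gastrocnemius, where library 4 was the shallowest. Genes encoded in mitochondrial DNA took 43.5% to 84.3% of the counts of the sperm libraries. Hepatocyte, adipocyte, muscle fibre, spermatid and morula marker genes were each highest in the table of their own tissue. The sperm libraries also held markers of epididymal epithelium, at 2003 to 33558 CPM (each count divided by the library total and set to a common scale) over 6 genes, and of leukocytes, at 260.4 to 3899 CPM over 5 genes, of which Cd52, which is also made by epididymal epithelium, alone held 234.3 to 3865 CPM. The methods state a swim-up, incubation of the pellet in a detergent lysis buffer, and the use only of samples in which no somatic cell was seen by microscope.

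Collagen transcripts were counted in every tissue, but which genes carried them differed. With detection set at 10 or more counts over a table and a count in 3 or more libraries, 43 of the 44 genes were detected in round spermatids, 31 in eWAT, 30 in sperm, 26 in gastrocnemius, 25 in morulae and 20 in liver. Depth moves such counts, since round spermatids had the deepest libraries. Col1a1, Col4a1, Col4a2, Col4a4, Col5a2, Col6a1, Col6a6 and Col14a1 were detected in all 6 tables. Col9a2, a chain of cartilage type IX collagen, was detected in morulae alone, and Col4a6 and Col9a1 in round spermatids alone. In morulae 12 genes, Col1a2, Col3a1 and Col5a1 among them, had no count in any of the 6 libraries. A count of 0 in a morula library allows a level of up to 0.247 to 0.262 CPM, depending on its total, a limit that covers counting error only.

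**Figure D1:**
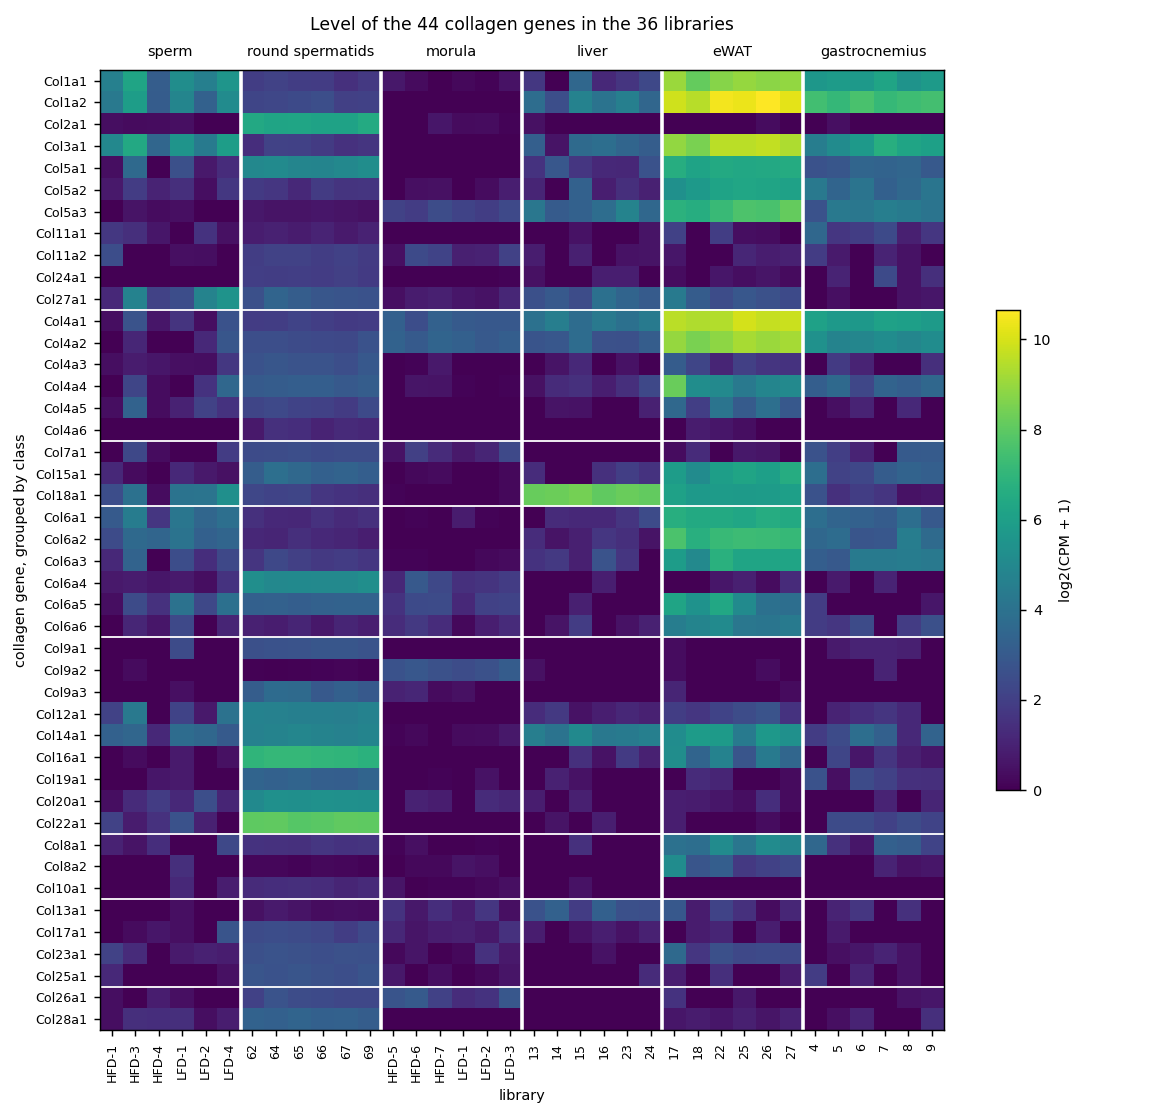
Level of each of the 44 collagen genes (rows, grouped by class) in each of the 36 libraries (columns, grouped by table), as log2(CPM + 1). Col1a2, Col3a1 and Col4a1 are brightest in eWAT, Col18a1 in liver, and Col22a1 and Col16a1 in round spermatids.

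Summed over the 44 genes, collagen took the largest share of counts in eWAT, at 3169 to 5269 CPM. Round spermatids had 728.3 to 790.4 CPM, gastrocnemius 421.1 to 555.6, liver 392.9 to 495.3, sperm 60.1 to 385.0 and morulae 34.9 to 56.6 CPM. These are shares of all counts, including the mitochondrial part given above, which differed between tables. The tables were made with 2 library kits and were not compared by a test. In the QuantSeq libraries (liver, eWAT, gastrocnemius) a transcript gives about 1 read whatever its length, so levels there are CPM. In the Nextera libraries (sperm, round spermatids, morulae) reads fall along the transcript, so levels there are CPM per kb of annotated length. In bulk tissue, more cells of a type and more RNA per cell cannot be told apart.

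In eWAT the interstitial fibril genes and type IV stood side by side at the top. Col1a2, a chain of type I collagen, had the highest level, with 726.4 CPM in the lowest library, a median of 1244 CPM and 1615 CPM in the highest. Col4a1, which with Col4a2 makes the common type IV network, followed at 677.1, 800.8 and 999.4 CPM in the lowest, median and highest library. Col3a1, the type III fibril chain that is often found with type I, had a lowest level of 363.9, a median of 697.9 and a highest level of 829.3 CPM. Col1a2 was above the other two in every library, while Col3a1 lay above Col4a1 in library 22 alone. Fibrillar genes made up a median of 56.8% of the collagen level of eWAT (49.3% to 61.7%) and type IV 31.8% (24.9% to 34.6%). Type VI genes, whose filaments link cells to the interstitial matrix, made up a median of 8.17%. Col5a3, a type V chain, was listed with a median of 171.8 CPM (99.4 to 283.1 CPM), above Col5a1 at 86.7 (71.0 to 98.8) and Col5a2 at 69.6 (39.3 to 78.3) CPM in every library.

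Gastrocnemius had the same 5 genes on top as eWAT, Col1a2, Col4a1, Col3a1, Col1a1 and Col4a2, at lower levels. Col1a2 was at 137.1, 167.5 and 194.7 CPM in the lowest, median and highest library. Col4a1 was at 50.5, 59.9 and 67.6 CPM and Col4a2 at 26.5, 31.9 and 40.6 CPM. Neither overlapped Col1a2, and they did not overlap each other. Fibrillar genes held a median of 64.3% of the collagen level (58.9% to 67.9%) and type IV 19.9% (16.7% to 23.9%). Col22a1, a FACIT known from the junction of muscle and tendon, had 0 to 12 counts per library in gastrocnemius, and the 3 tendon markers together stood at 4.5 to 10.7 CPM.

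Liver stood apart through 1 gene. Col18a1, whose product lines basement membranes and is the source of endostatin, held a median of 69.4% of the collagen level, at 266.7, 295.5 and 344.3 CPM in the lowest, median and highest library. The next gene, Col14a1, a FACIT of fibril surfaces, was at 15.7 to 32.8 CPM, and Col4a1 at 12.6 to 22.6 CPM. Every liver library therefore had more than 10 times as many counts of Col18a1 as of any other collagen gene. The fibril genes were low in count. Col1a2 had 10 to 56 counts per library, Col3a1 1 to 31 and Col1a1 0 to 24. The 3 markers of hepatic stellate cells together were at 23.7 to 31.4 CPM, with Reln at 15.7 to 25.2 and Lrat at 2.70 to 6.38 CPM. The same list was at 42.2 to 49.5 CPM in round spermatids, with Lrat at 21.6 to 24.6 CPM, so it is not particular to liver.

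**Figure D2:**
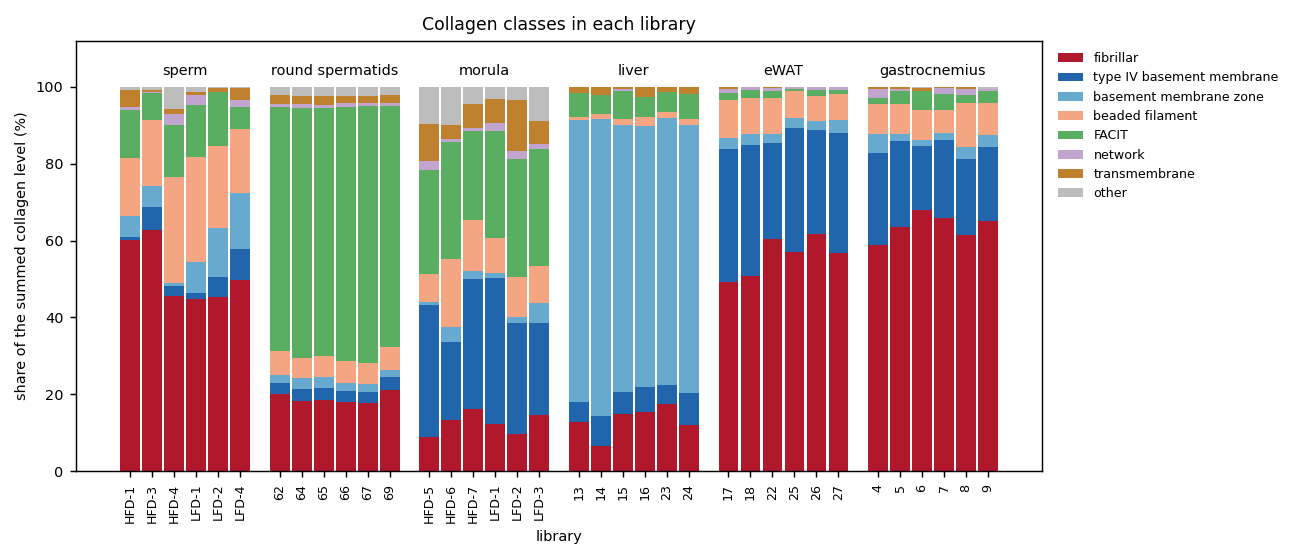
Share of each collagen class in the summed collagen level of each library (percent; CPM per kb in sperm, round spermatids and morulae, CPM in liver, eWAT and gastrocnemius). FACIT genes hold 62.7% to 66.8% in round spermatids, the basement membrane zone genes 67.8% to 77.4% in liver, and fibrillar genes the largest share in sperm, eWAT and gastrocnemius.

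Round spermatids, the haploid cells before elongation, carried a different set. Col22a1 had 5405 to 7626 counts per library and the highest level per length, 25.1, 28.3 and 29.2 CPM per kb in the lowest, median and highest library. Col16a1, another FACIT, followed at 16.5, 18.8 and 20.2 CPM per kb. Col2a1, the fibril chain of cartilage, was at 11.7, 12.6 and 14.98 CPM per kb. The ranges of these 3 genes did not overlap each other. Col20a1 (7.74 to 9.90 CPM per kb) and Col6a4 (3.61 to 4.39 CPM per kb) completed the 5 highest. FACIT genes together held a median of 64.9% of the collagen level, fibrillar genes 18.5% and type IV 3.03%. Within the fibrillar class Col2a1 and Col5a1 led, and Col1a1, Col1a2 and Col3a1 had 34 to 150 counts per library. The 5 fibroblast markers together were at 17.4 to 21.7 CPM in these libraries, of which Pi16 held 11.3 to 13.2 CPM and Dcn, which codes for decorin, 2.32 to 4.81 CPM. The 6 epididymal markers together were at 84.5 to 104.7 CPM, nearly all of it Cst8, at 81.1 to 100.7 CPM. Purity by microscopy was stated in the methods as 85% to 90%, and the part of other testis cells in the collagen counts was not tested. Of the 43 genes detected, 8 were not detected in liver, eWAT or gastrocnemius: Col2a1, Col4a6, Col9a1, Col9a3, Col10a1, Col17a1, Col25a1 and Col26a1. Those tissues had far shallower libraries. Col9a3 shares 234 exon bases with Tcfl5 on the opposite strand, which these libraries do not tell apart, and the part of Tcfl5 in its counts was not tested.

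Cauda sperm did not share the collagen profile of round spermatids. None of the 5 highest genes was the same. In sperm the highest were Col1a1 (1.201, 4.60 and 11.3 CPM per kb in the lowest, median and highest library), Col3a1 (1.08, 3.804 and 8.63), Col6a1 (0.50, 2.76 and 4.89), Col18a1 (0.04, 2.18 and 5.51) and Col1a2 (0.61, 1.90 and 4.81 CPM per kb). These ranges overlapped across libraries, but part of the order held within each library. Per kb, Col1a1 lay above Col3a1 (Col3a1 over Col1a1 0.56 to 0.90) and above Col1a2 (Col1a1 over Col1a2 1.96 to 4.98) in every library. Across the 44 genes, Spearman's rho of the median levels was 0.06 between sperm and round spermatids and -0.18 between sperm and morulae. Between sperm and eWAT it was 0.67, with liver 0.52 and with gastrocnemius 0.45. These values describe genes, and those with eWAT, liver and gastrocnemius rest on 2 different kits. Of the genes that led in round spermatids, Col22a1 had 0 to 16 counts per sperm library and Col2a1 0 or 1. Fibroblast markers were at 31.3 to 145.2 CPM in sperm, with Dcn at 24.7 to 102.3 CPM, against 17.4 to 21.7 CPM for the same 5 markers in round spermatids. Their part in the collagen counts of sperm was not tested.

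Morulae had little collagen mRNA and a profile of their own. Col9a2 had the highest level per length, at 1.49, 1.71 and 2.42 CPM per kb in the lowest, median and highest library (56 to 89 counts). Col4a2 was at 1.05, 1.27 and 1.504 CPM per kb and Col4a1 at 0.62, 0.92 and 1.21 CPM per kb. The range of Col4a2 overlapped those of both other genes, while every Col4a1 library lay below the lowest Col9a2 library. Col4a1 and Col4a2 build the earliest basement membranes of the embryo. Col26a1 (0.19 to 0.86 CPM per kb) and Col5a3 (0.40 to 0.68 CPM per kb) were next. Type IV held a median of 31.3% of the collagen level (20.3% to 38.1%), FACIT genes 29.0% (23.2% to 30.7%) and fibrillar genes 12.8% (8.87% to 16.1%).

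The fibrillar genes were set against the 6 type IV genes by the ratio of their summed levels in each library. The ratio was above 1 in all libraries of sperm, round spermatids, eWAT and gastrocnemius and below 1 in all 6 morula libraries. In morulae it was 0.26, 0.40 and 0.66 in the lowest, median and highest library. Sperm had the highest median and the widest range, 6.12, 13.5 and 72.9, but on few type IV counts, from 3 in HFD-1, the library at 72.9, to 83 in HFD-3. Round spermatids had a narrow range, 5.94, 6.21 and 6.88. Among the QuantSeq tissues, eWAT was at 1.42, 1.79 and 2.43, and gastrocnemius at 2.47, 3.203 and 4.06. The ranges of eWAT and gastrocnemius did not overlap. Liver was at 0.83, 2.43 and 3.49, with library 14 the only library below 1. In library 14 Col1a1 had no count and Col3a1 had 1.

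**Figure D3:**
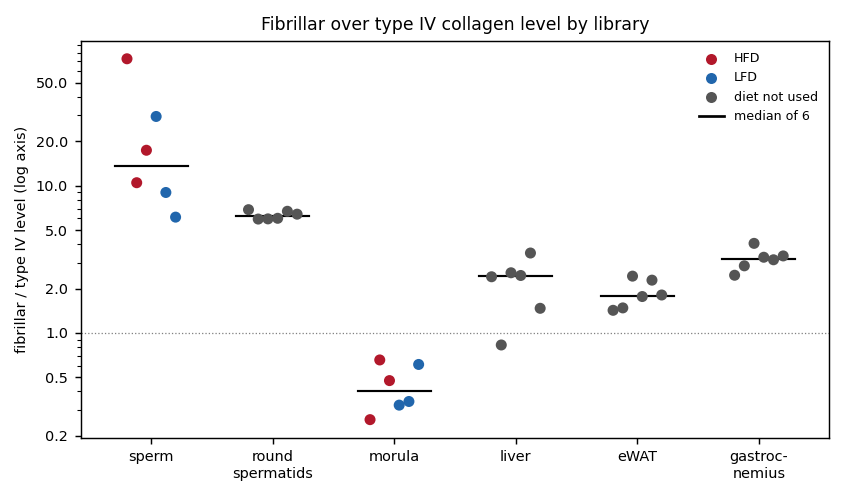
Ratio of the summed fibrillar to the summed type IV level in each of the 36 libraries (log axis; points are libraries, red for HFD, blue for LFD and grey where diet was not used; lines are the median of 6 on the log scale; per kb in sperm, round spermatids and morulae, plain counts elsewhere). Morula libraries lie at 0.26 to 0.66 and sperm libraries at 6.12 to 72.9.

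Which genes were put in a class moved this ratio in some tissues. When the genes of types VII, XV and XVIII were added to type IV, the median ratio in liver was 0.18, since Col18a1 then counted as basement membrane. Without Col1a1, Col1a2 and Col3a1, the median ratio was 0.24 in eWAT and 0.43 in gastrocnemius but 5.90 in round spermatids, where these 3 genes held little of the fibrillar level. In morulae the ratio stayed between 0.38 and 0.42 under each of these choices and with plain counts.

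Chains that assemble together were not counted in equal amounts. Col4a1 over Col4a2, the head-to-head pair, was 1.56 in eWAT (1.49 to 1.86) and 1.85 in gastrocnemius (1.58 to 2.23) on the plain scale. Per kb it was 0.77 in morulae (0.58 to 0.85) and 0.53 in round spermatids (0.45 to 0.69). In each of these 4 tables the ratio lay on the same side of 1 in all 6 libraries. The second pair, Col4a4 over Col4a3, was 1.27 (1.10 to 1.33) per kb in round spermatids, the only table where both had a median of 20 or more counts. Col4a5 over Col4a6 was 3.10 (2.22 to 6.70) per kb there. In these tables the 3 type IV pairs kept their side of 1 on the other scale too. Col1a1 over Col1a2 was 0.39 in eWAT (0.28 to 0.57) and 0.30 in gastrocnemius (0.26 to 0.52) on the plain scale, and 2.41 in sperm (1.96 to 4.98) and 1.35 in round spermatids (1.07 to 1.67) per kb. With plain counts it was 1.28 in sperm and 0.71 (0.57 to 0.88) in round spermatids, so the direction in round spermatids turned with the scale. The protein trimer of type I holds more alpha 1 than alpha 2 chains. Col5a1 exceeded Col5a2 by 17.2 times per kb in round spermatids (11.7 to 23.1) and by 1.28 times in eWAT (1.07 to 2.51).

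The spread among libraries was measured as the log2 range of CPM, from the lowest to the highest library, of genes with a median of 20 or more counts and a count in every library. In round spermatids the 40 collagen genes that qualified had a median range of 0.44, beside 0.40 for all 19233 genes. In sperm it was 3.23 for 8 collagen genes and 3.57 for all 5685 genes. In gastrocnemius the median range was 0.95 beside 1.012, and in eWAT 1.17 beside 0.97. In morulae (1.34 beside 0.69) and liver (1.45 beside 0.89) the few collagen genes that qualified, 8 and 6, had wider ranges than the median gene. Collagen genes in those tables had few counts, with 6 liver genes over 20 and 1 over 50, and counting error was not separated from these ranges. Without library 14 the median range in liver was 0.81. With scaling by the trimmed mean of M values (TMM) in place of library totals, the median range in sperm was 3.01 for the collagen genes and 2.25 for all genes.

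The genes that varied most were fibril genes in liver and gastrocnemius. Col3a1 varied 27.7-fold among liver libraries, from 1 count in library 14 to 31 in library 16, and 4.69-fold among gastrocnemius libraries, from 8 counts in library 4 to 95 in library 7. In sperm Col18a1 varied 142.3-fold, from 1 count in HFD-4 to 99 in LFD-4, and Col27a1, a fibrillar chain of cartilage, 32.2-fold. With TMM scaling these ranges were 33.6-fold and 13.8-fold, both highest in HFD-3. On library totals, LFD-4 also had the highest and HFD-4 the lowest epididymal marker sum, whose part was not tested. In morulae Col11a2, Col6a4 and Col26a1 varied 12.4-, 5.41- and 4.51-fold, each highest in HFD-6. In round spermatids no range was above 2.71-fold, that of Col4a6 with 14 to 40 counts.

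In eWAT 1 gene in 1 library set the widest range. Col4a4, a type IV chain best known from the kidney glomerulus, had 1031 counts in library 17 and 49 to 128 in the other 5. On the CPM scale that was 293.6 against 19.1 to 36.6, 8.02 times the next library. Library 17 was also the highest for Col16a1, Col27a1, Col8a2 and Col23a1. The same held for Col1a1, Col5a1, Col6a1, Col6a2 and Col18a1, at 1.05 to 1.24 times the next library. Library 17 held transcripts that the other eWAT libraries nearly lacked, chosen here after their values were seen. Epcam, an epithelial adhesion gene, had 773 counts there and 0 or 1 elsewhere. Pax8, a transcription factor of kidney, thyroid and reproductive duct epithelia, had 284 counts there and none elsewhere. Cldn2, a claudin of leaky epithelia, had 3228 counts there and 0 to 9 elsewhere. Of the marker lists, spermatid markers were at 60.6 CPM there and at 0.25 to 2.29 CPM elsewhere. Sertoli and Leydig cell markers were at 330.8 CPM, of which Sox9 held 321.7 CPM, against 13.8 to 22.9 CPM elsewhere. Epididymal markers were at 11.7 CPM, below library 18 at 17.9 CPM. The fibroblast markers of library 17 were at 5006 CPM, within the range of the others, and its adipocyte markers at 7654 CPM were the lowest. The part of these other transcripts in the Col4a4 count was not tested. Without library 17 the median fibrillar to type IV log2 ratio of eWAT was 0.86 in place of 0.84.

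Diet was compared first in cauda sperm, to ask whether 2 weeks of HFD went with a change in collagen mRNA. Only 11 of the 44 genes passed the filter on low counts, and 0 of the 11 passed an adjusted p of 0.05 (edgeR quasi-likelihood test, Benjamini-Hochberg over 8643 genes, of which 0% passed). DESeq2 also called 0 of the 11, and 3.31% of all genes, and limma-voom called 0 of the 11 and 0% of all genes. At an unadjusted p under 0.05 there were 3, all higher with HFD, where 13% of all genes tested passed (8.33% in that direction). None of the 11 genes had groups that did not overlap, against 20.4% of all genes tested (8.12% with HFD above LFD). Type IV had no gene among those tested in sperm, and Col18a1 was the only basement membrane zone gene among them. Col4a1 had 1 to 23 counts per library and Col4a2 0 to 16.

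The fibril genes of types I and III gave the 3 lowest p-values. Col1a2 was at 36.8, 83.6 and 17.2 TMM-scaled CPM in HFD-1, HFD-3 and HFD-4 and at 18.5, 5.68 and 13.2 in LFD-1, LFD-2 and LFD-4. HFD-3 was the highest library and HFD-4 lay below LFD-1, so the groups overlapped. The log2 fold change, HFD over LFD, was 1.89 ± 0.65 (SE), with adjusted p = 0.27. For Col3a1 the HFD libraries were at 58.1, 118.3 and 23.96 and the LFD libraries at 29.4, 12.4 and 23.6 TMM-scaled CPM, a log2 fold change of 1.62 ± 0.59 (adjusted p = 0.28). Col1a1 was at 45.8, 103.2 and 17.8 with HFD and at 24.2, 14.9 and 18.01 with LFD, 1.55 ± 0.60 (adjusted p = 0.29). In both genes HFD-3 was again the highest and HFD-4 lay within the LFD values. Mean levels were 45.9 ± 34.1 (SD, n = 3) and 12.5 ± 6.5 (SD, n = 3) TMM-scaled CPM for Col1a2 with HFD and LFD.

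Of the type VI genes, Col6a1 (1.07 ± 0.72), Col6a2 (1.25 ± 0.69), Col6a3 (1.53 ± 1.17) and Col6a5 (-0.65 ± 0.94) had log2 fold changes that did not pass the test, and neither did the FACIT genes Col12a1 (1.94 ± 1.199) and Col14a1 (0.98 ± 0.80), Col27a1 (0.36 ± 0.86) or Col18a1 (-0.20 ± 0.83). Col12a1, a FACIT of dense connective tissue, had 10, 77 and 0 counts with HFD and 10, 2 and 39 with LFD, so its value, the highest of the 11, rested on few counts. Of the 11 genes 9 were above 0, where 47.1% of all genes were, and their median was 1.25, beside -0.07 over all genes tested. These values depend on scaling: with library totals in place of TMM the median of all genes was -1.82 and that of the 11 genes -0.42, and Col1a1, Col6a1, Col6a2, Col14a1 and Col27a1 changed sign. The values also moved with single libraries. Without HFD-3 the median was 0.48, 0 genes were under an unadjusted p of 0.05 and Col6a3 and Col27a1 changed sign, while without LFD-2 0 genes were under that p with a median of 1.10. HFD-3 also had the highest smooth muscle and mural marker sum, 510.1 CPM against 0.67 to 81.2 in the others. On library totals, other measures differed between the diets without overlap. Epididymal markers were at 2552, 3812 and 2003 CPM in HFD-1, HFD-3 and HFD-4 and at 4195, 11568 and 33558 CPM in LFD-1, LFD-2 and LFD-4. The leukocyte list, mostly Cd52, was at 520.7, 793.6 and 260.4 CPM with HFD and at 1549, 2140 and 3899 CPM with LFD. Mitochondrial genes took 84.3%, 78.1% and 79.03% of counts with HFD and 63.4%, 64.7% and 43.5% with LFD, in the same order. On library totals all of these put the HFD and LFD libraries apart, and their part in the collagen values was not tested. In the TMM-scaled fit 3 of the 4 epididymal markers tested were below 0 and 1 above, with a median log2 fold change of -0.72. None of the 4 had groups that did not overlap, against 20.4% of all genes tested. Of the 4 leukocyte markers tested, 3 were above 0, and Cd52 was below (-0.60 ± 0.52). Their median was 1.15, and no gene of either list passed. The 4 fibroblast markers tested had a median log2 fold change of 1.40 in the same fit, and none passed. On library totals the 5 fibroblast markers were at 98.5, 122.6 and 31.3 CPM with HFD and at 145.2, 89.2 and 92.6 CPM with LFD. The 4 spermatid markers tested, Prm1, Prm2, Tnp1 and Tnp2, were also all above 0 in the fit. Their median was 1.22, and none passed. HFD lay above LFD without overlap in 2 of the 4 leukocyte markers and 1 of the 4 fibroblast markers. The same held for 1 of the 4 spermatid markers, against 8.12% of all genes tested. Whether other cells in the sperm preparations entered the difference was not tested.

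**Figure D4:**
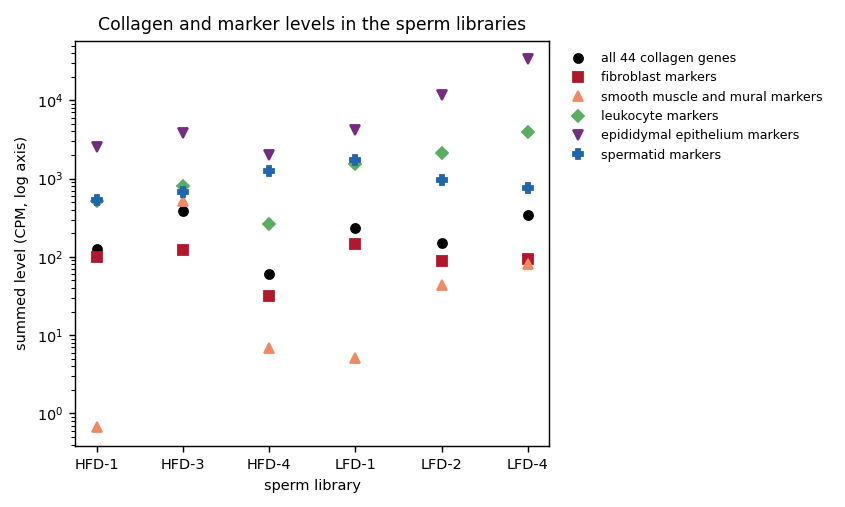
Summed level (CPM, log axis) of the 44 collagen genes and of 5 marker lists in each of the 6 sperm libraries. Collagen is highest in HFD-3, at 385.0 CPM, where the smooth muscle and mural markers are also highest, and lowest in HFD-4, at 60.1 CPM.

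Genes that make, cross-link, bind or break down collagen were read from the same fit. Of 58 such genes 25 were tested in sperm and 0 passed an adjusted p of 0.05, with 7 under an unadjusted p of 0.05, all higher with HFD, where 8.33% of all genes tested were under that p in that direction. Their median log2 fold change was 1.15. In 5 of the 25 genes HFD lay above LFD without overlap, against 8.12% of all genes tested, and in 0 LFD lay above HFD. By role, the folding and modifying enzymes had a median of -0.34 (4 genes tested), the basement membrane partners such as laminins and nidogens 0.90 (8 genes), and the collagen receptors 1.15 (5 genes). DESeq2 called 3 of the 25, where it called 3.31% of all genes. These 3, named here after their values were seen, were Adamts2, which removes the amino-terminal propeptide of fibrillar procollagens (log2 fold change 4.41 ± 0.85 in edgeR, adjusted p = 0.23), Bgn, which codes for the proteoglycan biglycan (1.72 ± 0.53, adjusted p = 0.24), and Lamb2, a laminin chain (2.16 ± 0.78, adjusted p = 0.28).

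Morulae made with sperm of HFD and LFD males were compared in the same way. There 13 of the 44 genes passed the filter, and 0 passed an adjusted p of 0.05 (edgeR quasi-likelihood test over 13447 genes, of which 0% passed). At an unadjusted p under 0.05 there were also 0, where 6.38% of all genes passed (3.55% higher with HFD). DESeq2 called 0 of the 13 and 0.0669% of all genes, and limma-voom called 0 of the 13 and 0% of all genes. None of the 13 had groups that did not overlap, against 12.1% of all genes tested. Of the 13 genes 9 were above 0, where 52.2% of all genes were, with a median log2 fold change of 0.12 beside 0.01 over all genes.

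The type IV pair was the best measured of the collagen genes in morulae. Col4a1 had 102, 54 and 110 counts in HFD-5, HFD-6 and HFD-7 and 85, 76 and 80 in LFD-1, LFD-2 and LFD-3. The LFD libraries lay inside the range of the HFD libraries, and the log2 fold change was 0.12 ± 0.31 (adjusted p = 0.97). Col4a2 had 107, 83 and 121 counts with HFD and 104, 80 and 97 with LFD, a log2 fold change of 0.12 ± 0.26 (adjusted p = 0.96). The mean level of Col4a2 was 8.68 ± 1.47 TMM-scaled CPM with HFD and 7.96 ± 0.76 with LFD (SD, n = 3 each). Col9a2, the highest collagen gene of morulae, had 63, 75 and 64 counts with HFD and 56, 60 and 89 with LFD, a log2 fold change of -0.05 ± 0.32. Both differences of the type IV pair were smaller than their standard errors, which does not show that the diets acted alike.

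The largest values in morulae were in genes of type VI. Col6a6 had 18, 28 and 19 counts with HFD and 2, 10 and 18 with LFD (1.07 ± 0.73, adjusted p = 0.85). Col6a4 had 15, 80 and 49 counts with HFD and 22, 23 and 32 with LFD (0.86 ± 0.54, adjusted p = 0.84). HFD-6 had the most Col6a4 counts and HFD-5 the fewest, so the spread within the HFD group took in the LFD group. Col26a1 (0.65 ± 0.52), Col11a2 (0.59 ± 0.74), Col6a5 (0.37 ± 0.49), Col13a1 (0.32 ± 0.76) and Col5a3 (0.04 ± 0.40) were above 0 without passing, and Col7a1 (-0.29 ± 0.77), Col17a1 (-0.38 ± 0.72) and Col20a1 (-0.56 ± 1.119) were below 0. Of the 58 pathway genes 35 were tested in morulae, 0 passed and 1 was under an unadjusted p of 0.05, where 6.38% of all genes were, with a median log2 fold change of 0.13. Col6a5 was the only collagen gene tested in both comparisons, at -0.65 ± 0.94 in sperm and 0.37 ± 0.49 in morulae, and this difference was not tested.

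**Figure D5:**
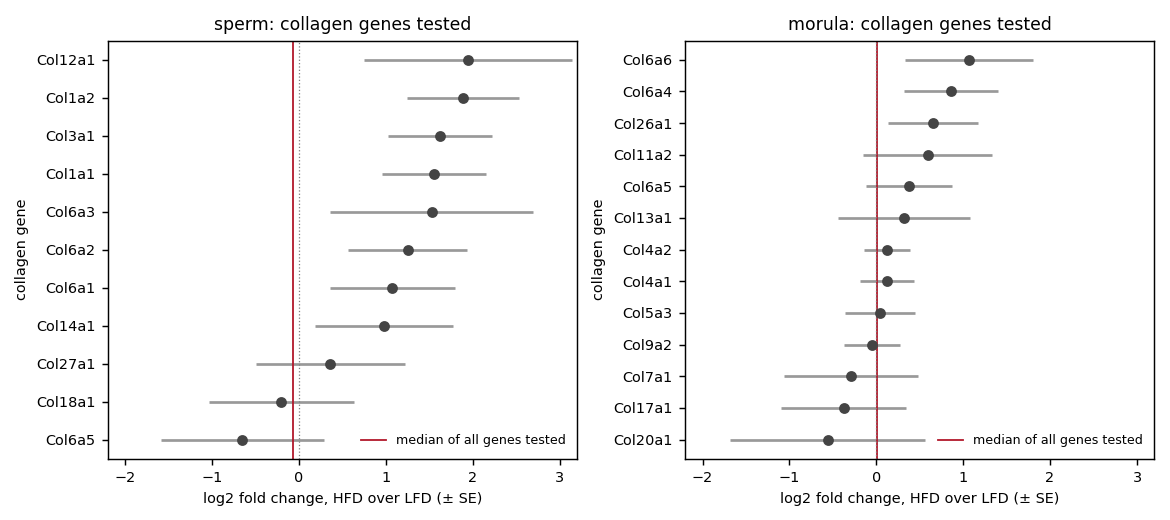
Log2 fold change, HFD over LFD, with its standard error for the 11 collagen genes tested in sperm (left) and the 13 tested in morulae (right), with 3 libraries per diet; the red line is the median of all genes tested. In sperm 9 of 11 genes lie above 0 and in morulae 9 of 13, and none passed an adjusted p of 0.05.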

How the data were processed

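RNA was sequenced by the study's authors from Nextera libraries (sperm, round spermatids, morulae) and QuantSeq 3′ libraries (liver, eWAT, gastrocnemius), 36 in all. The deposited files hold raw read counts per Ensembl gene and an annotated length, made by the authors with BBDuk for trimming, STAR for alignment to GRCm38 and featureCounts; the strand setting is not given in the sources used here. Sperm and morula columns were assigned to a diet by the letters in their names. Library numbers are those in the column names, not sample titles. Round spermatids came from separate mice per the methods; for the sperm and morula libraries, the ones tested, the sources used here do not state separate animals, so p-values measure the spread between these libraries. In 3 morula samples the description names the other diet than the title and treatment, which were followed. Gene symbols matched 54723 of 54838 identifiers in sperm, liver, eWAT and gastrocnemius, 51633 of 51912 in round spermatids and 55141 of 55487 in morulae. No 2 libraries of a table agreed within sampling noise.

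Diet was tested with edgeR 4.0.16 (filterByExpr with minimum count 10, TMM, quasi-likelihood F-test, two-sided, HFD over LFD), with DESeq2 1.42.0 and limma 3.58.1 voom as alternatives, in R 4.3.3. The authors' NOISeq test was not run. Other scalings, filters, scales, class definitions, a replicate block and leaving out single libraries were also tried. Scripts were tested on simulated data. Exon overlap with other genes was at most 6.07% of exon bases (Col9a3), and the Nextera kit does not mark strand. Genes and lists were chosen with earlier results of these data known. Named genes were chain partners, the 5 highest genes per table, those with the largest fold changes per comparison and the 3 widest ranges per table.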

Additional observations from a re-analysis of the deposited data

Results flagged for a closer look

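In the 4 tables whose libraries carry no diet label, 56 sets of 6 libraries (collagen sums, class ratios and named genes with a median of 20 or more counts) were examined for a library far from the others, by the gap to its nearest library as a share of the whole range (Dixon's 95% critical value). Of these sets 4 passed. The named genes include those with the widest ranges in these same libraries, and some sets share genes. The number that would pass by chance is therefore not known. The clearest was Col4a4 in eWAT library 17, at 293.6 CPM against 19.1 to 36.6 CPM in the other 5 libraries. Summed collagen in eWAT library 18 was 3169 CPM against 4524 to 5269 CPM in the others. Library 18 had the lowest total count of the eWAT libraries, 1338149. Col20a1 in round spermatid library 62 was 32.5 CPM against 38.6 to 41.5 CPM. Col5a3 in gastrocnemius library 4 was 5.41 CPM, from 2 counts in the shallowest library, against 16.3 to 22.4 CPM.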

How the results depend on the processing

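No alternative brought a collagen gene past an adjusted p of 0.05 in sperm or morulae. In sperm 3 genes passed an unadjusted p of 0.05. Library totals gave a median log2 fold change of -0.42, with values of -0.011 for Col1a1, -0.42 for Col6a2, -0.43 for Col6a1, -0.54 for Col14a1 and -1.27 for Col27a1, all above the median of all genes, -1.82. Replicate numbers in the sperm column names (1 and 4 occur in both diets) are not said to mark shared animals; with the replicate block the median was 0.087, and Col12a1 (-0.86), Col6a3 (-1.35) and Col27a1 (-0.79) changed sign, with 0 genes called. HFD-3 and LFD-2 had no partner number in that fit, so its diet values rest on HFD-1, HFD-4, LFD-1 and LFD-4. In morulae no such block was fitted, because numbers are not shared between the diets there. Called pathway genes in sperm numbered 3 with library totals, where 37.8% of all genes passed, 3 with DESeq2, where 3.31% passed, and 1 without a filter on low counts.

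Leaving out 1 library at a time, the median ranged from 0.48 to 1.68 in sperm and from 0.10 to 0.41 in morulae, highest without LFD-3. In sperm the ranges were -0.57 to 2.12 for Col6a3, -1.30 to 0.84 for Col27a1 and -1.31 to 0.33 for Col18a1. In morulae they were -0.11 to 1.25 for Col13a1, -0.046 to 0.37 for Col4a1, -1.09 to 0.85 for Col7a1, -1.15 to 0.014 for Col20a1, -0.16 to 0.20 for Col5a3, -0.20 to 0.19 for Col9a2 and -0.80 to 0.20 for Col17a1.

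With at least 50 counts, detected genes numbered 14 in sperm, 14 in morulae, 9 in liver and 14 in gastrocnemius, and with 1 count in any library 37 in liver and 41 in gastrocnemius. The median fibrillar to type IV log2 ratio, with types VII, XV and XVIII added to type IV, was 2.33 in sperm, 1.83 in round spermatids and -2.48 in liver. Without Col1a1, Col1a2 and Col3a1 it was 1.29 in sperm, 0.077 in liver, -2.06 in eWAT and -1.22 in gastrocnemius. Per length it was 0.43 in eWAT and 1.28 in gastrocnemius, and with plain counts 2.37 in round spermatids. Leaving out eWAT library 17, liver library 14 or gastrocnemius library 4, choices made after seeing the data, moved the median ratio and the median spread by less than their SD over libraries or genes; the spread in liver was 0.81 without library 14. Of the alternative values that answer a comparison 22 moved past the spread between libraries or 1.5 times and the others did not, and of those for single genes and chain pairs 32 changed direction. The latter include, chosen after seeing the data, the other scale for chain ratios, which gave Col3a1 over Col1a1 as 1.24 in sperm, 0.96 in eWAT and 0.73 in gastrocnemius, Col1a1 over Col1a2 as 0.71 and Col6a3 over Col6a1 as 1.60 in round spermatids, and Col6a1 over Col6a2 as 1.18 in eWAT. Why these values moved was not tested. The level that 3 counts stand for was highest in gastrocnemius library 4, at 8.11 CPM.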
